A study of Mus musculus with 4 samples.

Results

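Villus fibroblasts with a high level of stress response genes were taken from the 10X Genomics cells of a single-cell RNA-seq series on the stroma of the mouse small intestine. Of 16891 10X cells, 4040 met the rule for a villus fibroblast: a transcript of Lpl or Fgfr2, none of Sox6 or Grem1, and at most 1 gene from each of 3 marker sets of other fibroblasts (Scara5, Vit, Penk and Inmt, then Ptn, Thbs2, Dner and Chodl, then P2rx1, Sertm1, Saa3, Cxcl5, Cxcl9 and Mmp10). Other crypt and subepithelial markers were not limited by the rule. Within each library these cells were ordered by a score, the mean value of Fos, Egr1, Junb, Hspa1a, Hspa1b and Ier3, and cut into 3 parts of nearly equal size, called here high-score, mid-score and low-score cells. The high-score part held 1346 cells, 191 of 573 villus cells in 10X library 1 (library 1 from here on) and 1155 of 3467 in 10X library 2 (library 2), of 17630 cells in the whole series. The cells were thus selected on the measured values of these 6 genes, so their values are a description, and they were left out of every test together with the genes of the villus rule.

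The cells came from the small intestine of wild-type C57Bl/6 mice, 8 weeks old by the sample labels, given as male in the labels and as a mixed cohort in the study's methods. There was no treatment group. Before capture, the epithelium was stripped off, the tissue was digested with the enzyme mix Liberase TL, and live CD45-, EpCAM-, CD31- and PDPN+ (gp38+) cells were sorted, PDPN being a broad surface marker of fibroblasts. All cells analysed here share this preparation, and no cells prepared in another way were analysed here. The number of mice behind each 10X library was not found in the sources, so each library counts as 1 replicate, and p-values measure only the spread between these 2 samples, which may be technical.

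Immediate-early genes are switched on within minutes of a stimulus without new protein synthesis. Many encode transcription factors of the AP-1, EGR and NR4A families, and others encode inhibitors that end the same response. Heat shock genes encode chaperones that refold damaged proteins under control of the factor HSF1, while NF-kB controls chemokines, adhesion molecules and its own inhibitor. Villus fibroblasts form the core of the villus below the epithelium, where they lay down matrix and send signals to epithelial, immune and vascular cells.

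A value is the natural log of a gene's UMIs per 10000 UMIs of the cell plus 1 (ln value), a UMI being 1 captured RNA molecule, and a level in UMIs per 10000 is given where a fold is stated. Over all 10X cells the 2 libraries had a median of 8757 and 6874 UMIs per cell, of which the genes of the table made up 23.61% and 22.59%, and 7 barcodes occurred in both libraries, 2 of them among the high-score cells. Depth moved with the score. Low-score, mid-score and high-score cells had a median of 6061, 7495 and 8906 UMIs in library 1, and of 5068, 5891 and 5982 UMIs in library 2. The differences were therefore also taken from cells ranked within 10 bins of total UMIs and from cells thinned to 2000 UMIs, with the villus rule and the score applied anew to the thinned values for each tested difference, while shares of thinned cells with a UMI keep the parts as cut at full depth.

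The score had no gap at the cut. In library 1 the last mid-score cell had 2.4394 and the first high-score cell 2.4454, and in library 2 the values were 2.6875 and 2.6884. Within 0.1 of the cut lay 22 of 191 high-score and 15 mid-score cells in library 1, and 124 of 1155 high-score and 99 mid-score cells in library 2. The cells formed 2 humps along the score in both libraries. In bins of 0.1, library 2 had 144 cells in the bin from 0.5, 62 in that from 1.9 and 133 in that from 3.1, and library 1 had 54 in that from 0.0, 5 in that from 1.5 and 23 in that from 3.1. The high-score cut lay above the trough in each library, and the mid-score cells lay in the trough and on both of its sides. Whether the humps are separate states was not tested. The SD of the score over villus cells was 1.18 and 1.10.

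**Figure D1:**
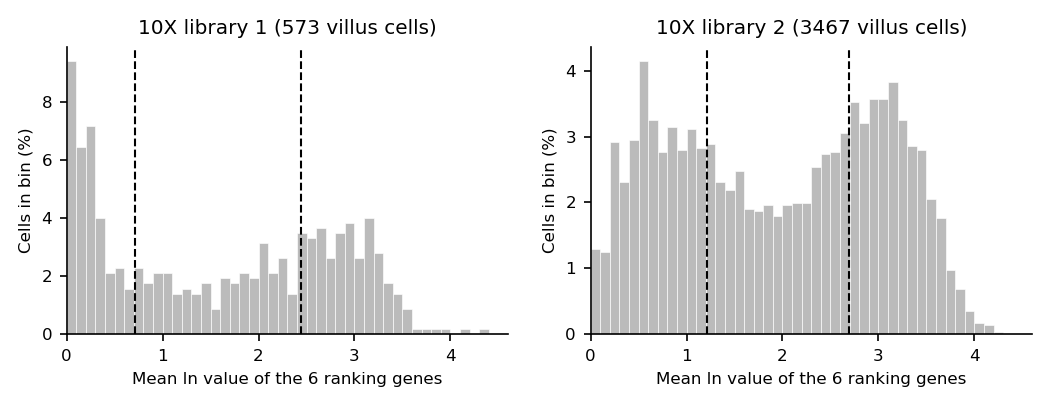
Share of villus cells (%) in bins of the mean ln value of the 6 ranking genes, for each library. Dashed lines mark the lowest score of the mid-score and of the high-score cells (2.445 and 2.688 for the latter), and cells lie on both sides of each cut, with the lowest counts between the humps to the left of the high-score cut.

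Villus genes were found in the cells at every score. Of 12 villus genes in the table, Lpl and Fgfr2 of the villus rule not counted, the median high-score cell had a UMI of 10 in both libraries, as had the median mid-score and low-score cell, against 6 and 7 in the other 10X cells, which the rule had set apart. Adamdec1, a secreted metalloprotease-like protein that is a standard villus fibroblast marker, was found in 97.4% (exact 95% interval 94.0 to 99.1%) and 99.4% (98.8 to 99.8%) of the high-score cells. It was also found in 73 of 117 glia and 96 of 101 smooth muscle cells of library 2, at 12.9 and 54.8 UMIs per 10000 against 90.4 in high-score cells, so a UMI of it alone does not mark a villus fibroblast. Pdgfra, a receptor used to mark intestinal fibroblasts, was found in 86.9% and 88.3% of the high-score cells, and in 25.6% of those glia. It was also in 68.3% of those smooth muscle cells, at 13.23 UMIs per 10000 against 4.916 in high-score cells of library 2, so it does not set the 2 apart. The leukocyte gene Ptprc had no UMI in mid-score and high-score cells of library 1 but was found in library 2, and the median high-score cell had none from the epithelial, endothelial, glial, smooth muscle or immune marker lists. Crypt fibroblast markers were present and moved with the score: the mean summed level of 7 such genes was 15.6 UMIs per 10000 in low-score, 30.3 in mid-score and 38.1 in high-score cells of library 1, and 19.4, 31.3 and 38.5 in library 2. Il6, itself called higher, is 1 of the 7. Its level went from 0.7769 in mid-score to 2.04 in high-score cells of library 1, and from 1.141 to 4.198 in library 2. Cells with UMIs of 2 or more of the crypt genes Prss23, Ackr4, Cilp, Pcolce2 and Olfml2b made up 15.18% of low-score, 42.93% of mid-score and 49.74% of high-score cells in library 1, and 15.32%, 30.08% and 38.7% in library 2. Leaving all of them out gave 241 called genes in place of 236, with 190 of the 236 called again in the same direction and 232 of them tested. That fit put no weight on a gene's own spread, unlike the reported one, so the 2 counts are not on the same footing.

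The ranking genes were 2.16 to 9.18 times higher in high-score than in mid-score cells. Egr1, a zinc finger factor, averaged 21.41 UMIs per 10000 in mid-score and 59.24 in high-score cells of library 1, and 28.49 and 72.39 in library 2. Fos and Junb, which pair to form AP-1, went from 12.42 to 34.99 and from 15.24 to 44.31 UMIs per 10000 in library 1, and from 15.62 to 33.75 and from 18.41 to 47.5 in library 2. These 3 genes had a UMI in 83.8 to 99.0% of mid-score cells and in 99.9 to 100% of high-score cells. Hspa1a, the inducible HSP70 chaperone, went from 5.836 to 25.37 and from 7.537 to 29.66 UMIs per 10000. Its neighbour Hspa1b went from 3.114 to 11.82 and from 6.455 to 25.64. The 2 genes encode nearly identical proteins, so reads could be split between them in counting, and their separate levels are uncertain. Ier3, a survival gene, was the least widespread: it had a UMI in 20.9% of mid-score and 74.9% of high-score cells in library 1, and in 34.5% and 78.5% in library 2. Together the 6 genes took 0.586% and 0.779% of all UMIs in mid-score cells and 1.81% and 2.16% in high-score cells. Scaling cells to their UMIs without these 6 genes gave 229 called genes.

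The 6 genes varied together across villus cells. In cells thinned to 2000 UMIs, Spearman's rho between Egr1 and Junb was 0.796 in library 1 and 0.759 in library 2, and between Egr1 and Hspa1a 0.636 and 0.589. Between the 2 heat shock genes Hspa1a and Hspa1b it was 0.574 and 0.593, so these were not set apart from the early genes. Ier3 was tied more loosely to Hspa1b, with 0.273 and 0.329. Cxcl10, which was not used in the score, had a rho of 0.365 and 0.334 with Egr1, and Icam1 of 0.479 and 0.435. These are descriptions across cells of 1 library, which share their total UMIs and their preparation.

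Against the mid-score cells, 236 of 1389 tested genes were called in the high-score cells by limma on library means (17.0%, Benjamini-Hochberg adjusted p below 0.05), of which 195 were higher (14.0%) and 41 lower (2.95%). The counts over gene lists below are to be read beside these shares. All 236 had the same sign in both libraries, and 393 genes had an unadjusted p below 0.05. The median difference of all genes tested was -0.0009 on the ln scale. Each gene's test rests on 4 means and 1 residual degree of freedom, and its power comes from the variance shared over genes. As cells were ranked on genes of the same cells, a gene that varies with the 6 across cells differs between the parts by construction, and the test asks whether its difference repeats in both libraries. Ranking cells within 10 bins of total UMIs, which levelled the median depth of mid-score and high-score cells to 7296 and 7313 UMIs in library 1 and 5620 and 5633 in library 2, left 118 higher and 9 lower calls.

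**Figure D2:**
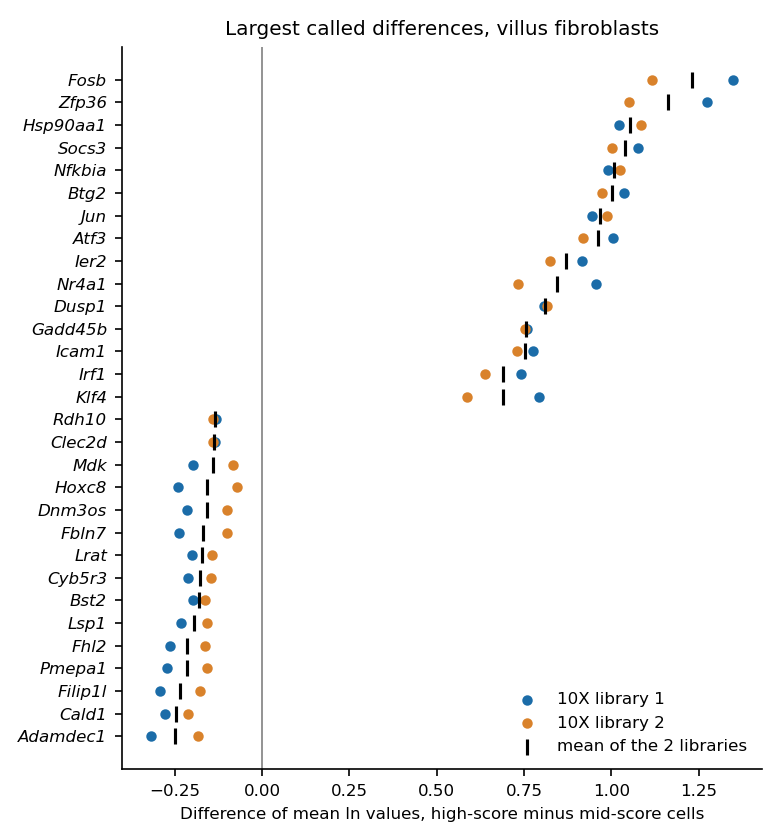
Difference of mean ln values between high-score and mid-score villus cells for the 15 called genes with the largest difference in each direction. Circles are the 2 libraries and black bars their mean. Higher genes reach 1.23 (Fosb), lower genes -0.25 (Adamdec1), and each gene has the same sign in both libraries.

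Immediate-early transcription factors rose almost as a whole. Of 22 tested members, 20 were higher, none was lower, and the median difference was 0.26 on the ln scale. Fosb, an AP-1 partner of Jun, had a mean ln value of 0.92 in mid-score and 2.27 in high-score cells of library 1, and of 1.14 and 2.26 in library 2. Both high-score means lay above both mid-score means, with a difference of 1.23 ± 0.16 (SD over the 2 libraries, adjusted p = 7.77e-07 by limma) and a level 4.65 and 2.97 times higher in UMIs per 10000. Jun itself went from 1.67 to 2.61 and from 1.78 to 2.77 (difference 0.97 ± 0.03, adjusted p = 2.24e-06). Atf3, a stress-induced repressor, went from 0.70 to 1.70 and from 0.77 to 1.69. Its difference was 0.96 ± 0.06 (adjusted p = 7.77e-07). The nuclear receptor Nr4a1 and the small early response gene Ier2 differed by 0.84 ± 0.16 and 0.87 ± 0.06, and Klf4, a factor that restrains proliferation, by 0.69 ± 0.15. Ier2 and the others named here were called under all 12 alternatives.

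Growth arrest and survival genes of the early response rose in 10 of 13 tested members, with none lower. Btg2, an antiproliferative gene that promotes mRNA decay, had mean ln values of 1.5 and 1.63 in mid-score and 2.54 and 2.61 in high-score cells of library 1 and library 2 (difference 1.00 ± 0.04, adjusted p = 1.94e-06). Gadd45b, a regulator of stress kinases, differed by 0.76 ± 0.005 (adjusted p = 7.51e-06). Ppp1r15a, which restores translation after stress by directing a phosphatase to eIF2α, differed by 0.56 ± 0.06, and Ppp1r10, a nuclear phosphatase partner, by 0.60 ± 0.14. In each of these genes, picked as the largest differences of their list, each high-score mean lay above each mid-score mean. How often this held over all genes tested was not counted.

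Genes that shut signalling down rose as well, 12 of 18 tested, while Dusp6, a phosphatase of ERK, was lower. Zfp36, which destabilises cytokine mRNAs, went from 1.18 to 2.45 in library 1 and from 1.35 to 2.40 in library 2 (difference 1.16 ± 0.16, adjusted p = 1.24e-06). Socs3, the inhibitor of JAK-STAT signalling from the IL-6 receptor family, went from 0.77 to 1.85 in library 1 and from 0.85 to 1.85 in library 2 (1.04 ± 0.05, adjusted p = 7.77e-07). Nfkbia, the inhibitor that holds NF-kB in the cytoplasm, went from 0.87 to 1.86 and from 0.94 to 1.97 (1.01 ± 0.02, adjusted p = 7.77e-07). Dusp1, a phosphatase of stress-activated MAP kinases, differed by 0.81 ± 0.005 (adjusted p = 5.94e-06). In UMIs per 10000, Nfkbia was 3.67 and 2.85 times higher and Dusp1 2.46 and 1.99 times higher in the high-score cells.

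Since these genes moved together, the 250 bases before their annotated starts were searched on both strands for 7 motifs (RefSeq promoters, GRCm38.p6). Windows were found for 148 of the 195 higher genes (193 windows) and 1029 of the 1389 tested genes (1361 windows). The cAMP response element TGACGTCA was in 7.77% of the windows of higher genes, 2.79% of those of tested genes and 1.55% of all 32851 windows. NF-kB sites were in 14.5%, 10.4% and 7.25%, the CArG box bound by SRF in 4.15%, 1.84% and 1.47%, and the AP-1 site TGANTCA in 8.29%, 7.71% and 6.75%. An interferon-stimulated response element, a pair of GAAA (or of its complement TTTC) with any 2 bases between, was in 6.74%, 4.04% and 2.98%. In the 39 windows of 30 lower genes the CArG box was in 15.4% and the interferon element in 10.3%, both above the share in higher genes, and the 8 CArG windows of higher genes belong to 5 genes. The paired heat shock repeat, GAANNTTC or TTCNNGAA, was in 14.0%, 10.1% and 12.8%, and a run of 3 alternating GAA and TTC units with the same spacing, which contains the paired one, in 0.518%, 0.514% and 0.466%. A match is a description of letters and not a bound site. The windows of Nfkbia, Zfp36, Dusp1, Cxcl10 and Hspa1b each held a match, so they do not stand for their gene classes. No match to any of the 7 motifs was found for Icam1, Socs3, Atf3, Nr4a1, Junb or Dnajb1. Hspa1b and Junb were ranking genes left out of the tests, so they are not among the 195 higher genes. The 5 windows shown, 5′ to 3′ on the gene's strand, are those of an NF-kB inhibitor, an mRNA decay factor, a kinase phosphatase, a chemokine and a chaperone, and capitals mark the matches:
Nfkbia (chr12:55492648-55492897, minus strand, an NF-kB site): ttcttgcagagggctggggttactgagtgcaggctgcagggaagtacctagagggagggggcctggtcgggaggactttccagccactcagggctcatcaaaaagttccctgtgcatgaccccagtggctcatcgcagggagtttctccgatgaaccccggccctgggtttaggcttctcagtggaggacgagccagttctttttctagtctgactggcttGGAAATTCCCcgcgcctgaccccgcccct
Zfp36 (chr7:28379229-28379478, minus strand, a CArG box): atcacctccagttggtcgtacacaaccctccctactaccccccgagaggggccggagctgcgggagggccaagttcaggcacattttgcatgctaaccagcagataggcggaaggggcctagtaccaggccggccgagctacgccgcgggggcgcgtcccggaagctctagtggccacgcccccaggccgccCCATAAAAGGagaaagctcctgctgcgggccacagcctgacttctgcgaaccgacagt
Dusp1 (chr17:26508473-26508722, minus strand, a cAMP response element): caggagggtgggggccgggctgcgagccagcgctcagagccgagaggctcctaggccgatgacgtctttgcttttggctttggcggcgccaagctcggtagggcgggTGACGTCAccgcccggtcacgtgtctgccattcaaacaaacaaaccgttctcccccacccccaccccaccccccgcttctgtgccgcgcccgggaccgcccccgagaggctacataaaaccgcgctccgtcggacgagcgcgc
Cxcl10 (chr5:92348890-92349139, minus strand, an interferon-stimulated response element, NF-kB sites and an AP-1 site): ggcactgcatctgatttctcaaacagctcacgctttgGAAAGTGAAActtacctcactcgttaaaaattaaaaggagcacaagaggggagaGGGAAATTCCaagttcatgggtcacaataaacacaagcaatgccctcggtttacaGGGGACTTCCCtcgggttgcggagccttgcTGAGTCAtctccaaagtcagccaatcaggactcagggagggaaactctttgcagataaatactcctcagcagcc
Hspa1b (chr17:34959239-34959488, minus strand, an NF-kB site letter match and a paired heat shock repeat): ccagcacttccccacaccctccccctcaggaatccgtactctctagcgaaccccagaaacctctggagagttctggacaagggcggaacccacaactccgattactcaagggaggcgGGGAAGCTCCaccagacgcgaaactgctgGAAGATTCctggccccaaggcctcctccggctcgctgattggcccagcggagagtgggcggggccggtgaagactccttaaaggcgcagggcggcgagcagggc

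Chaperones of the heat shock response rose in 7 of 13 tested members and fell in none, beside Hspa1a and Hspa1b, which were part of the score. Hsp90aa1, the inducible HSP90, went from 1.94 to 2.96 in library 1 and from 2.21 to 3.30 in library 2 (difference 1.05 ± 0.05, adjusted p = 7.77e-07), or 2.48 and 2.53 times higher in UMIs per 10000. Dnajb1, the HSP40 cochaperone that feeds clients to HSP70, differed by 0.60 ± 0.13 (adjusted p = 7.66e-06), and Dnaja1, another of this family, by 0.49 ± 0.05 (adjusted p = 0.00017). Hspe1, the mitochondrial HSP10, differed by only 0.22 ± 0.007 (adjusted p = 0.0159), and it was called under 8 of 12 alternatives. Both tested genes of the endoplasmic reticulum stress list, Vldlr and Stc2, were not called, with 0.04 ± 0.04 and 0.02 ± 0.05.

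NF-kB subunits and targets rose in 9 of 16 tested members, with none lower. Icam1 (GRCm38 chr9:21015985-21028817, plus strand), the adhesion molecule that binds leukocyte integrins, had mean ln values of 1.14 and 1.30 in mid-score and 1.91 and 2.03 in high-score cells. Each high-score mean lay above each mid-score mean. The difference was 0.75 ± 0.03 (adjusted p = 9.13e-06 by limma), called under all 12 alternatives (0.62 to 1.39, the upper end being against low-score cells). Icam1 was found in 66.5% of mid-score and 92.1% of high-score cells in library 1 and in 74.1% and 93.2% in library 2. With the parts kept as cut at full depth and their cells thinned to 2000 UMIs, the shares were 43.5% and 70.7%, and 49.5% and 75.5%, against 25.3% of glia of library 2 (17.1 to 35.0%), which were used to gauge free RNA, and 18.4% and 25.5% of low-score cells. Those glia held early response genes themselves. Fos was at 46.82 UMIs per 10000 in them against 33.75 in high-score cells of library 2, while Egr1 was at 40.23 against 72.39 and Hspa1a at 8.719 against 29.66. Nfkbiz, a nuclear cofactor of NF-kB at Il6, differed by 0.63 ± 0.17 (adjusted p = 7.51e-06), and Irf1, a factor at the junction of NF-kB and interferon signalling, by 0.69 ± 0.07 (adjusted p = 6.9e-06).

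Among chemokines, 3 of 9 tested members were higher (33.3%, against 14.0% of all genes tested) and 2 lower. Cxcl10 (GRCm38 chr5:92346638-92348889, minus strand), the ligand of CXCR3 on T cells, had mean ln values of 0.20 in mid-score and 0.81 in high-score cells of library 1, and of 0.32 and 0.96 in library 2. Low-score cells were near 0, at 0.04 and 0.09. The difference was 0.63 ± 0.02 (adjusted p = 7.77e-07), called under all 12 alternatives (0.43 to 0.73 on the ln scale where mid-score cells were the reference). In UMIs per 10000, Cxcl10 was 3.87 and 3.77 times higher. It was found in 41.9% (34.8 to 49.2%) and 46.4% (43.5 to 49.3%) of the high-score cells, so more than 1 in 2 had none detected. Mid-score cells had it in 12% and 19.3% and, as a measure of free RNA, 117 glia of library 2 in 12% (6.7 to 19.3%, median 5115 UMIs against 5982 in high-score cells). With these parts thinned to 2000 UMIs, Cxcl10 remained in 31.5% and 33.4% of high-score cells, against 6.99% and 10.8% of mid-score cells and 10.1% of glia (4.95 to 17.8%), so the mid-score shares lay within the interval of the glia. Low-score cells had it in 1.08% and 3.56% (2.54 to 4.83% in library 2), below the glia, so the share in glia is not the free RNA level of villus cells.

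Ccl2, which recruits monocytes, went from 0.17 to 0.61 and from 0.43 to 0.84 (difference 0.42 ± 0.03, adjusted p = 6.9e-06). Cxcl1, which recruits neutrophils, went from 0.13 to 0.57 and from 0.29 to 0.51 (0.33 ± 0.16, adjusted p = 0.000313). Both genes were higher in each library, and the difference of Cxcl1, called under 11 of 12 alternatives, was 0.44 in library 1 and 0.22 in library 2. The lower ones were Cxcl13 and Cxcl14, and the eosinophil chemokine Ccl11 was not called (0.11 ± 0.11). High-score cells with a UMI of Cxcl10 had one of Il6 in 51.2% and 60.6% of cases, and those without it in 34.2% and 45.4%, against 5.98% (2.44 to 11.9%) of the glia of library 2. The former were also deeper, with medians of 9238.5 against 7955 and 6543.5 against 5464 UMIs, and the part of depth in this was not tested.

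**Figure D3:**
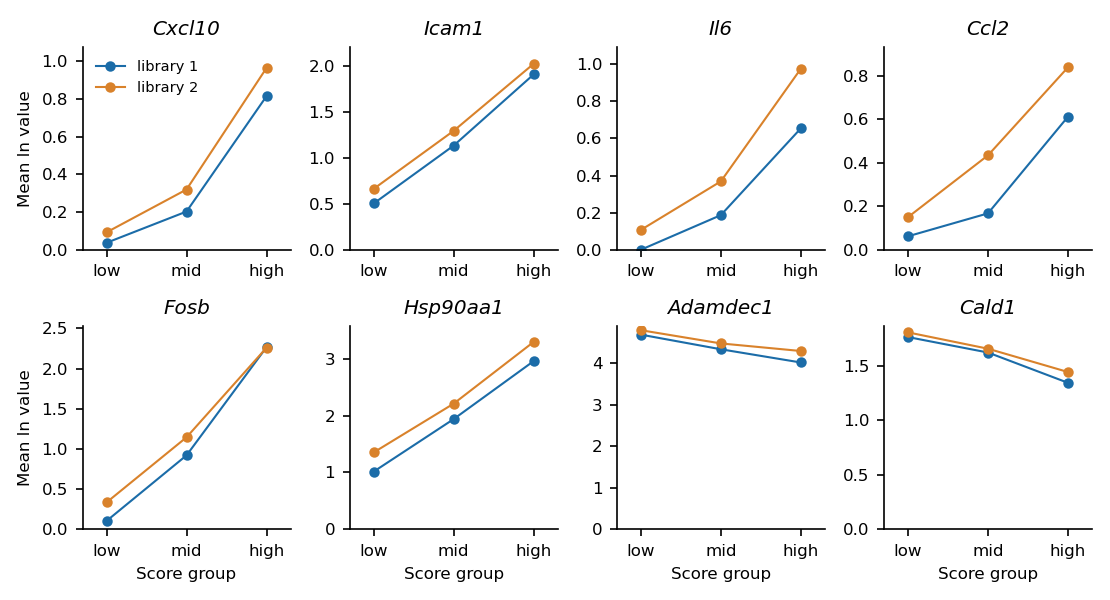
Mean ln value of 8 genes in low-score, mid-score and high-score villus cells of each library (lines join the parts of 1 library). Cxcl10, Icam1, Il6, Ccl2, Fosb and Hsp90aa1 are highest in high-score cells of both libraries, Cxcl10 reaching 0.81 and 0.96, while Adamdec1 and Cald1 are lowest there.

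Cytokines and enzymes of inflammation were higher in 6 of 17 tested members (35.3%, against 14.0% of all genes tested), and Ptgs1 was lower. Il6, the cytokine that signals through gp130 and STAT3, had mean ln values of 0.19 and 0.37 in mid-score and 0.65 and 0.98 in high-score cells (difference 0.54 ± 0.10, adjusted p = 4.25e-06). It had no UMI in 191 low-score cells of library 1 (upper limit of the exact 95% interval 1.91% of cells with a UMI), and in library 2 it had one in 104 of 1155 (9.0%, 7.42 to 10.8%). Has1, which makes hyaluronan, and Tnfaip6, which modifies it, differed by 0.40 ± 0.26 (adjusted p = 0.00105) and 0.28 ± 0.05 (adjusted p = 0.00156). The difference of Has1 was 0.58 in library 1 and 0.22 in library 2, and its call was lost in 3 of 12 alternatives (highest adjusted p = 0.148). C3, the central complement protein, differed by 0.29 ± 0.09 (adjusted p = 0.0142). Il6 and C3 also stand on the list of crypt fibroblast markers, of which 4 of 14 tested were higher (28.6%, against 14.0% of all genes tested). The others were Fbln1 and Aebp1 at 0.22 ± 0.07 and 0.20 ± 0.05. Without the cells that held 2 or more other crypt genes the difference of Il6 was 0.56, of C3 0.31, of Aebp1 0.23 and of Fbln1 0.23, the last with an adjusted p of 0.146. C3 was called under 10 of 12 alternatives and Aebp1 and Fbln1 under 9 each (highest adjusted p = 0.483, 0.458 and 0.488), and Tnfaip6 under 11.

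Interferon response and antigen presentation genes were higher in 8 of 30 tested members (26.7%, against 14.0% of all genes tested) and lower in 1. The median difference was 0.01, and most of the list was not called. Irf1 and Cxcl10 led it. Iigp1, an interferon-induced GTPase against intracellular pathogens, went from 0.91 to 1.46 and from 1.27 to 1.71 (difference 0.49 ± 0.07, adjusted p = 0.000166), and was called under 11 of 12 alternatives. Bst2 (tetherin), another interferon-stimulated gene, went the other way, from 1.29 to 1.09 and from 1.22 to 1.06 (-0.18 ± 0.02, adjusted p = 0.0405), and was called under 5 of 12 alternatives.

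Metal and oxidative stress genes were higher in 5 of 12 tested members (41.7%, against 14.0% of all genes tested). Mt1, a metallothionein that buffers zinc and copper, went from 1.00 to 1.86 in library 1 and from 0.70 to 1.10 in library 2 (0.63 ± 0.32, adjusted p = 0.000383). Its difference was 0.86 in library 1 and 0.40 in library 2. Mt2 differed by 0.41 in the former and 0.07 in the latter, so its size rests on library 1. The calls of Mt1 and Mt2 were made under 10 and 8 of 12 alternatives (highest adjusted p = 0.154 and 0.369). Nop58 and Nolc1, both of the nucleolar machinery that builds ribosomes, differed by 0.58 ± 0.10 and 0.30 ± 0.03, and Kdm6b, a histone H3K27 demethylase, by 0.58 ± 0.08. All 3 were called under each of the 12 alternatives.

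Matrix genes as a group did not follow. Of 22 fibrillar and basement membrane genes, 1 was higher and none was lower. Col1a1, the main chain of collagen I, had 3.53 and 3.31 in mid-score and 3.64 and 3.42 in high-score cells (0.11 ± 0.003, adjusted p = 0.141), and Fn1, fibronectin, differed by -0.14 ± 0.05 (adjusted p = 0.186). Of matrix proteases and their inhibitors, 3 of 13 tested members were higher (23.1%, against 14.0% of all genes tested) and 10 were not called, with a median difference of 0.02. Adamts4 and Adamts1, which cleave proteoglycans, rose by 0.62 ± 0.12 (adjusted p = 1.18e-05) and 0.44 ± 0.20 (adjusted p = 0.000444), the latter called under 11 of 12 alternatives, and Htra1, a serine protease, was at -0.11 ± 0.007 (adjusted p = 0.131).

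**Figure D4:**
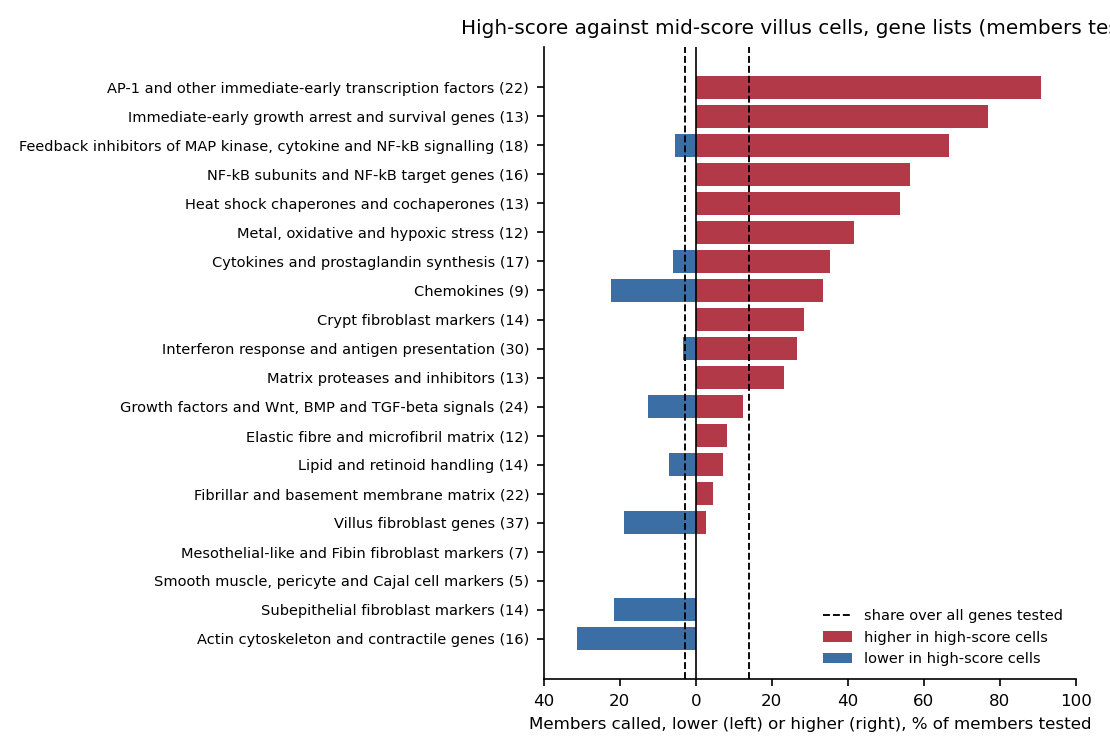
Share of tested members of each gene list with 5 or more tested members (number in parentheses) that were called higher (right) or lower (left) in high-score than in mid-score villus cells, in percent. Dashed lines are the shares over all genes tested, 14.0% and 2.95%. Early response lists reach furthest to the right and contractile genes furthest to the left.

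Genes that define the villus fibroblast itself were lower in 7 of 37 tested members and higher in 1, Ces1d, with a median difference of -0.07. Adamdec1 had mean ln values of 4.34 and 4.48 in mid-score and 4.02 and 4.30 in high-score cells (difference -0.25 ± 0.10, adjusted p = 0.000447). In low-score cells it stood at 4.69 and 4.80, so the order over the 3 parts was the same in both libraries. It was called under 9 of 12 alternatives, and without the crypt-marked cells the difference was -0.29. Lrat, which esterifies retinol for storage, differed by -0.17 ± 0.04 (adjusted p = 0.049), Pmepa1, a target and inhibitor of TGF-beta signalling, by -0.21 ± 0.08 (adjusted p = 0.0494), and Fhl2, a LIM protein of focal adhesions, by -0.21 ± 0.07 (adjusted p = 0.00235). The calls of Lrat and Pmepa1 were lost in 7 and 8 of 12 alternatives, that of Ces1d in 2 and that of Fhl2 in 1.

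Contractile genes fell in 5 of 16 tested members and rose in none. Cald1, caldesmon, which binds actin and myosin, went from 1.62 to 1.34 and from 1.66 to 1.44 (difference -0.25 ± 0.05, adjusted p = 0.0196), and Filip1l from 1.082 to 0.79 and from 1.12 to 0.94 (-0.24 ± 0.08, adjusted p = 0.00766). They were called under 10 and 9 of 12 alternatives (highest adjusted p = 0.277 and 0.157). Acta2, smooth muscle actin, differed by -0.12 ± 0.05 (adjusted p = 0.0465), and by -0.08 (adjusted p = 0.443) without the crypt-marked cells. Its call was lost in 6 of 12 alternatives, and in UMIs per 10000 its level went from 2.961 to 3.593 in library 1 and from 3.453 to 2.111 in library 2, with 83.5% and 78.5% of the high-score level in the top 1 in 10 cells. Of the markers of smooth muscle cells and pericytes, none of 5 tested was called. Synpo2 differed by -0.05 ± 0.0006, while Myh11, the smooth muscle myosin, differed by -0.02 ± 0.06 and had 1.96 times the mid-score level in library 1 and 0.669 times in library 2. Cells with UMIs of 2 smooth muscle markers went from 5.76% to 7.33% in library 1 and from 4.75% to 2.51% in library 2, and their part in the contractile genes was not tested. Subepithelial fibroblast markers fell in 3 of 14 tested members. Of these, Wnt4, a Wnt ligand, fell by 0.09 ± 0.03 (adjusted p = 0.0046) and Bmp5, a BMP ligand, by 0.12 ± 0.06 (adjusted p = 0.0387). Bmp5 differed by -0.15 in library 1 and -0.08 in library 2 and was called under 5 of 12 alternatives, Wnt4 under 9. The summed level of 8 subepithelial markers had a median of 7.99 UMIs per 10000 in mid-score and 4.97 in high-score cells of library 1, and of 7.92 and 7.03 in library 2, and its part in the lower genes was not tested.

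Growth factors and Wnt, BMP and TGF-beta signals were higher in 3 and lower in 3 of 24 tested members, the higher share (12.5%) being near that of all genes tested (14.0%). Bmp2 differed by 0.13 ± 0.03 (adjusted p = 0.0477), called under 5 of 12 alternatives, and Sfrp1, a secreted Wnt inhibitor, by 0.13 ± 0.09 (adjusted p = 0.139). Of 14 tested lipid and retinoid genes, 1 was higher (7.14%, below the share of all genes tested) and 1 lower, Lrat. The higher one, Apoe, differed by 0.22 ± 0.03 (adjusted p = 0.0378 by limma) and was called under 7 of 12 alternatives. The nuclear RNAs Malat1, Neat1, Meg3 and Kcnq1ot1 were not called, with differences from -0.06 to 0.08, and of the cell cycle genes only Ccnd2 was (0.15 ± 0.08, adjusted p = 0.0494, of 3 tested), at 0.21 in library 1 and 0.09 in library 2, with a call under 5 of 12 alternatives. Among markers of other cells, Cd68, a lysosomal protein of macrophages, rose from 0.02 to 0.18 and from 0.05 to 0.12 (adjusted p = 0.00178), and Lgals4, of the epithelium, from 0.06 to 0.15 and from 0.07 to 0.11 (adjusted p = 0.0277). Their calls were made under 9 and 6 of the 11 alternatives that tested them. In library 1, Ptprc and 8 of 10 epithelial markers were at 0 in high-score cells. In library 2, Ptprc was not at 0 and 1 of the 10 epithelial markers was (Fabp1), and cells with 2 epithelial markers went from 1.38% of mid-score to 2.16% of high-score cells.

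The score joins early response genes and heat shock genes, and ranking the same villus cells on either set alone gave related cells. Each ranking was cut into 3 parts of nearly equal size, so unrelated rankings would share about 1 in 3 cells of a part. Of the highest part by Fos, Egr1, Junb and Ier3, 69.6% (133 of 191) and 69.2% (799 of 1155) were also in the highest part by Hspa1a and Hspa1b, and 3.66% and 2.86% were in the lowest. The early gene ranking called 244 genes higher and 118 lower, the chaperone ranking 213 and 40, both in fits that put no weight on a gene's own spread. Hspa1a, not used in the early gene ranking, was higher there by 1.03 and 1.01 in the 2 libraries, and Egr1, not used in the chaperone ranking, by 1.39 and 1.17. Nfkbia differed by 1.16 under the early gene ranking and 0.65 under the chaperone ranking, Cxcl10 by 0.65 and 0.43, Il6 by 0.61 and 0.38, and Adamdec1 by -0.39 and -0.13. Hsp90aa1 differed by 0.95 and 0.99, Dnaja1 by 0.44 and 0.47 and Hspe1 by 0.13 and 0.26, while the chaperone gene Dnajb1 differed by 0.60 and 0.44. The 2 rankings share most of their cells, so the gap between them was not tested.

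**Figure D5:**
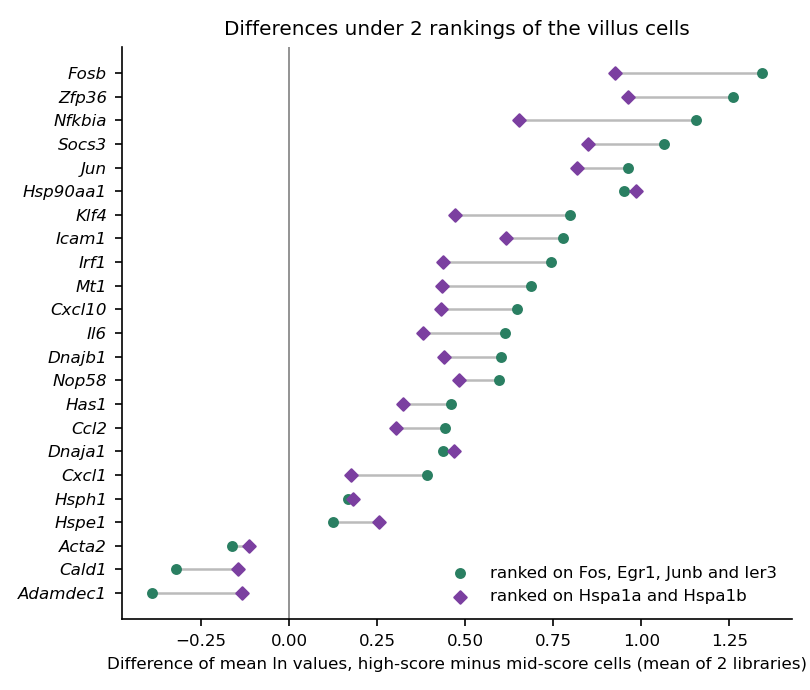
Difference of mean ln values between the highest and the middle part of villus cells (mean of 2 libraries) when cells are ranked on Fos, Egr1, Junb and Ier3 (circles) or on Hspa1a and Hspa1b (diamonds). Nfkbia falls from 1.16 to 0.65 between the rankings while Hsp90aa1 stays at 0.95 and 0.99.

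The other 10X cells, ranked and cut in the same way, served to ask whether villus fibroblasts differ in this contrast. In other cells, Cxcl10 was higher in the highest than in the middle part by 0.28 in library 1 and 0.39 in library 2, against 0.61 and 0.64 in villus cells. The difference between the 2 contrasts was 0.29 (limma adjusted p = 0.106), so it was not called. With all cells thinned to 2000 UMIs, and the villus rule and the score applied again to the thinned cells, it was 0.28 (adjusted p = 0.011), one of 9 genes called there with a more positive difference in villus cells. The others were Fosb, Zfp36, Socs3, Btg2, Gadd45b, Cxcl1, Hsp90aa1 and Gdf10, the last of which stayed level in villus cells and was lower in the highest part of other cells at full depth. The thinned high-score parts held 221 and 1427 cells in place of 191 and 1155, so depth and membership changed together. For Icam1 the difference was 0.34 (adjusted p = 0.4), and 0.40 (adjusted p = 0.0624) when thinned. For Il6 it was 0.14 (adjusted p = 0.746). At full depth 1 of 1577 genes was called (0.0634%), with 135 at an unadjusted p below 0.05.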

How the data were processed

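10X Genomics cells were processed by the authors with Cell Ranger 3.1.0 against mm10 (GRCm38) and filtered and normalised with Seurat. The deposited values are natural log values of UMIs per 10000 plus 1, per cell, and the 10X values are not corrected: 100% of values above 0 were whole UMIs (tolerance 0.01). The 739 Smartseq2 columns were not used. The table read here held 3891 genes, and 1 further gene row that ends early was left out.

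The members and gene lists were chosen with earlier results of these data known. Means per library and part were tested with limma 3.58.1 (R 4.3.3; library as block, mean trend, Benjamini-Hochberg adjustment, 0.05, two-sided) over genes above 0 in at least 5% of the cells of a part. The design foresaw a count model should the file hold raw counts, and since it holds logs none was used. Named genes were the 15 largest called differences in each direction, up to 4 per list, the 6 ranking genes, Cxcl10 and Icam1, and up to 5 called genes per direction of the contrast with other cells. A few further genes were named after their values were seen (Dusp6, Ptgs1, Cxcl13, Cxcl14 and Hspa1a in the other ranking). The library block follows from the parts being cut within each library, so the block pairs cells of the same library. Shares have exact (Clopper-Pearson) 95% intervals, which cover counting error only. Cells were thinned to 2000 UMIs with seed 7.

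Doublets were scored with Scrublet (scanpy 1.11.5). By its default cut 3 and 518 cells were doublets. An alternative dropped those with the highest doublet scores, 52 and 1646 in all, 1 and 43 of them high-score cells and 2 and 85 mid-score cells (3.72% and 7.35% of these parts in library 2). Totals without the ranking genes and the removal of crypt-marked cells were added after seeing the data. One further removal of cells and a gene of the lists are not reported here. The test was checked on simulated data. Coordinates are from GENCODE M21, promoters from RefSeq. Python 3.11.15, NumPy 2.4.6, SciPy 1.17.1, pandas 2.3.3 and matplotlib 3.10.9 were used.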

Additional observations from a re-analysis of the deposited data

Results flagged for a closer look

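Gdf10, a TGF-beta family ligand, differed between villus fibroblasts and the other 10X cells in how it changed with the score. It stayed level in villus cells, at 0.006 in library 1 and -0.009 in library 2 on the ln scale, and was lower in the highest part of the other cells, by -0.12 and -0.11. The difference between the contrasts was 0.1138 (limma adjusted p = 0.0159), and 0.09 (adjusted p = 0.011) when cells were thinned to 2000 UMIs. The call was lost with no filter on low values (adjusted p = 0.816), with no mean trend (0.617) and with no replicate block (0.519). The make-up of the other cells moved with it: cells with a UMI of Grem1 went from 76.6% of the middle to 82.1% of the highest part in library 1 and from 59.9% to 77.7% in library 2, and cells with Fibin from 11.4% to 8.05% and from 22.9% to 12.1%. Its part in the result was not tested.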

How the results depend on the processing

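The 236 calls became 108 with no mean trend, 109 with no replicate block (108 higher, 1 lower), 127 with ranking within 10 bins of total UMIs, 362 with ranking on Fos, Egr1, Junb and Ier3 and 625 against low-score cells. The cause was not tested. The other 7 fits gave 172 to 287. With either other ranking, against low-score cells and without the crypt-marked cells, limma put no weight on a gene's own spread (an infinite prior df, against 9.99 in the reported fit), so the p-values of those 4 fits rest on the spread shared over genes. Of the 236 calls, 102 with no mean trend and 233 against low-score cells were made again with the same sign. Without either library, no test is possible, and the difference between high-score and mid-score cells in a single library was 0.6113 to 0.644 for Cxcl10 and 0.7309 to 0.7763 for Icam1. In the contrast with other cells, 0 genes were called with no filter (208 at an unadjusted p below 0.05), no mean trend (109) or no replicate block (27), and 9 when thinned, and without 1 library that test cannot be made. Named genes called in the report lost their call most often with no replicate block (32 genes), with ranking within 10 bins of total UMIs (23) and with no mean trend (22), and none of them turned sign. Of all 236 called genes, 1 turned sign without a call in thinned cells (Esyt1) and 1 with ranking on Hspa1a and Hspa1b and against low-score cells (Marcksl1), both named after their values were seen. Some uncalled named genes turned sign in the difference between high-score and mid-score cells. Without crypt-marked cells, it was -0.00319 for Stc2, -0.0168 for Col14a1, 0.0173 for Myh11, -0.00245 for Mcm3, -0.00779 for Neat1 and 0.0529 for Jmjd1c. Against low-score cells, it was 0.314 for Mgp, -0.00966 for Reg3b, 0.00827 for Plvap, -0.079 for Des, -0.205 for Neat1 and 0.16 for Jmjd1c, of which Mgp, Neat1 and Jmjd1c were called in the turned direction (limma adjusted p = 0.000584, 0.0104 and 0.0019). With ranking on Hspa1a and Hspa1b, it was -0.00858 for Reg3b, 0.00666 for Plvap, 0.013 for Malat1, -0.049 for Neat1 and 0.0724 for Jmjd1c. With ranking within 10 bins of total UMIs, it was 0.0054 for Reg3g, -0.00204 for Des, -0.00751 for Mcm3 and 0.0713 for Jmjd1c. In thinned cells, it was -0.0207 for Des, 0.0048 for Fibin, -0.0312 for Neat1 and 0.0458 for Jmjd1c. As log2 of pooled UMIs per 10000 plus 0.1, it was 0.167 for Myh11 and -0.0417 for Igfbp6. With ranking on Fos, Egr1, Junb and Ier3, it was -0.0172 for Mcm3 and 0.01004 for Jmjd1c. Between the fits without 1 library, it ran from -0.0201 to 0.0501 for Stc2, from -0.386 to 0.0679 for Mgp, from 0 to 0.00649 for Reg3b, from -0.00414 to 0 for Reg3g, from -0.0258 to 0.074 for Des, from -0.0595 to 0.0249 for Myh11, from -0.0573 to 0.0233 for Etv1, from -0.00941 to 0.0278 for Mcm3, from -0.058 to 0.102 for Neat1, from -0.00649 to 0.0376 for Fkbp5 and from -0.0729 to 0.0623 for Jmjd1c.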
